A study of Mus musculus with 9 samples.

Results

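The cell cycle and DNA replication genes described here are 44 named genes, listed by symbol with earlier results of these data known. All are present among the 40773 genes of a count table from cultured embryonic mouse cortical neurons. They fall into 4 genes of G1, the D-type cyclins and their kinase (Ccnd1, Ccnd2, Ccnd3, Cdk4), 4 genes of S phase entry (Ccne1, Ccne2, Cdk2, E2f1), and 12 genes of DNA replication in S phase (Mcm2 to Mcm7, Cdc6, Gins2, Pcna, Rrm1, Rrm2, Tyms). The others are 21 genes of mitosis or of the G2 phase that leads to it, and 3 inhibitors of cyclin-dependent kinases (Cdkn1a, Cdkn1b, Cdkn1c). The neurons were plated, left overnight and then covered with 80 µl of peptide amphiphiles, molecules that assemble into nanofibres, from a 5 mM stock at 200 µM. The control group, PA, had amphiphiles without charge, and the 2 other groups, Na+ ICN and K+ ICN, had ion-charged nanostructures with sodium or potassium as the ion. At 48 h 50% of the medium was replaced in all groups, RNA was taken at 72 h, and poly(A) RNA of 3 cultures a group was sequenced. The labels give no strain, sex or embryonic day and name no untreated culture. They do not say whether the 3 replicates of a group came from separate dissections, so the p-values measure the spread between cultures that may share their source.

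In G1 of the cell cycle, D-type cyclins activate Cdk4, which releases E2F transcription factors from the retinoblastoma protein. S phase, in which the genome is copied, is followed by G2 and mitosis, in which chromosomes are condensed and separated. The inhibitors of the Cip/Kip family, p21, p27 and p57, bind cyclin-kinase complexes and hold cells back, and in the embryonic cortex they take part in the exit of progenitors from the cycle. Neurons do not divide, so that in a cortical culture transcripts of mitosis genes are generally taken to come from progenitors, glia and other dividing cells.

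Library totals ran from 17924988 to 22906950 counts, and the 44 genes held 24312 to 34923 counts a library. All 44 genes were among the 15183 that passed the low-count filter, and counts of one member in one library ran from 42 (Gins2) to 3935 (Ccnd2). Replicates of a group differed by more than counting noise, with chi-square values per degree of freedom of 3.24 to 4.19. Neuron markers were abundant, as the label has it. In PA Dcx averaged 2006 CPM (counts scaled to a common library total), Tubb3 1961 CPM and Map2 1774 CPM, while Mki67 averaged 86.1 CPM. Other annotated genes overlap 18 of the 44 genes, such as Tspan31 at Cdk4, Exosc9 at Ccna2 and Rccd1 at Prc1, and 5 (Pcna, Tyms, Ccnb1, Ccnb2 and Ccnd3) have a pseudogene of their own name. Their counts are uncertain where reads could be split, since no source used here gives the strand setting of the counting. Both ions were compared with the same 3 PA libraries, so the comparisons with PA share their controls and are set side by side only.

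Divided by the length of the longest annotated transcript, levels of the members in PA spanned 0.736 to 64.9 CPM per kilobase. Cdk4 was the highest at 64.9 ± 0.604 CPM per kilobase (SD, n = 3). The replication clamp gene Pcna followed at 48.7 ± 1.65 CPM per kilobase, and Cdkn1b at 25.0 ± 0.823 CPM per kilobase. The lowest were the helicase loader gene Cdc6 at 0.736 ± 0.0249 CPM per kilobase and Gins2, which encodes a subunit of the replication fork helicase, at 0.868 ± 0.276 CPM per kilobase. Those 2 did not differ beyond their spread. The mitosis genes spanned 2.01 to 14.3 CPM per kilobase in PA, with Top2a the highest and Birc5 the lowest. None of these 3 highest levels was that of a mitosis gene.

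Of the 44 genes, 10 rose with Na+ ICN and 20 rose with K+ ICN, and none fell in either comparison (edgeR quasi-likelihood test, Benjamini-Hochberg adjusted p under 0.05 over 15183 genes). With Na+ ICN that is 22.7% of the members, beside 5.63% of all genes tested that were called higher and 5.22% called lower. With K+ ICN it is 45.5% of the members, beside 8.15% of all genes called higher and 7.68% called lower. The fitted log2 difference from PA was above 0 for 41 of the 44 genes with either ion. The median was 0.18 for Na+ ICN and 0.28 for K+ ICN, beside 0.0036 and 0.0031 over all genes. The 3 PA and the 3 treated libraries did not overlap, with the treated ones higher, for 15 members with Na+ ICN and 28 with K+ ICN. Of all genes, 12.2% and 16.9% did the same. The changes were small, and no member reached a doubling. In bulk RNA, more dividing cells and more of these transcripts in each dividing cell cannot be told apart.

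The plot of fold changes shows all 44 genes in role order. Without PA 3 or without Na+ ICN 2 the count with Na+ ICN was 6, and without PA 1 the count with K+ ICN was 13. Of the 10 genes, 5 (Ccnd2, Cdk4, Top2a, Cdkn1a and Cdkn1c) stayed past the threshold in all 14 alternative fits for Na+ ICN. Of the 20 genes, 9 (Ccnd2, Mki67, Top2a, Cdk1, Prc1, Cenpe, Cdkn1a, Cdkn1b and Cdkn1c) did so for K+ ICN. Upper-quartile scaling moved the calls over all genes from 855 higher and 793 lower to 1042 and 552 for Na+ ICN, and from 1237 and 1166 to 1440 and 902 for K+ ICN. Under it 11 and 22 members rose and none fell.

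**Figure D1:**
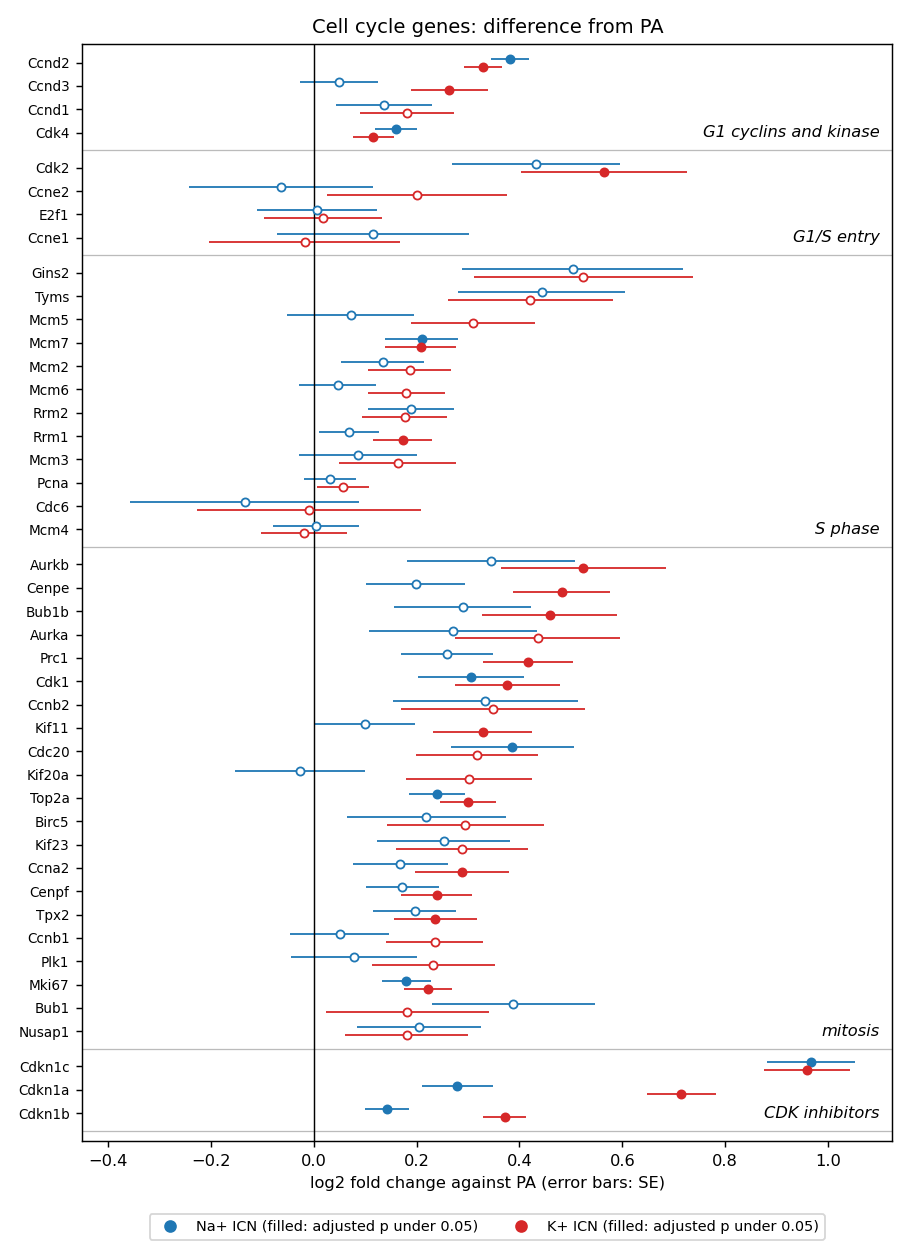
Log2 fold change of each of the 44 genes against PA, with Na+ ICN in blue and K+ ICN in red, grouped by role. Bars are standard errors, filled points passed adjusted p under 0.05, and 41 of the 44 points of either ion lie to the right of 0.

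In G1, the D-type cyclin gene Ccnd2 (chr6:127125162-127152188, GRCm38.p6) rose with both ions, the kinase gene Cdk4 rose with both by a smaller amount, and Ccnd3 rose with K+ ICN. Values are given in the order of replicates 1, 2 and 3. Ccnd2 stood at 143, 143 and 135 CPM in PA, 179, 183 and 181 with Na+ ICN and 179.6, 174 and 177 with K+ ICN. All treated libraries were above all PA libraries, and the 2 treated groups overlapped. The difference was 1.30-fold with Na+ ICN (log2 0.38 ± 0.037 SE, adjusted p = 9.10e-11). It was 1.26-fold with K+ ICN (log2 0.33 ± 0.037 SE, adjusted p = 2.10e-09).

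Cdk4, the kinase that the D-type cyclins activate, stood at 132, 133 and 135 CPM in PA, 146, 149 and 148 with Na+ ICN and 153, 136 and 146 with K+ ICN. Its treated libraries were again all above PA. The rise was 1.12-fold with Na+ ICN (log2 0.16 ± 0.04 SE, adjusted p = 0.00539) and 1.08-fold with K+ ICN (log2 0.12 ± 0.04 SE, adjusted p = 0.0399). Cdk4 varied more among the K+ ICN libraries than in the other groups. Its K+ ICN call was lost without K+ ICN 1, K+ ICN 3 or any 1 of the PA libraries (adjusted p from 0.0782 to 0.285). It was also lost with DESeq2 (0.0608) and limma voom (0.0637). Ccnd3 stood at 33.4, 29.2 and 33.6 CPM in PA, 31.8, 34.1 and 32.99 with Na+ ICN and 41.3, 36.5 and 38.4 with K+ ICN. Ccnd3 was highest in the 3 K+ ICN libraries (log2 0.26 ± 0.075 SE, adjusted p = 0.0104). The Na+ ICN libraries lay within the PA range or near it (log2 0.05 ± 0.076 SE, adjusted p = 0.763). The K+ ICN call of Ccnd3 was lost without K+ ICN 1 or PA 2 (adjusted p from 0.0873 to 0.0976). Ccnd1 did not pass in either comparison. Its log2 differences were 0.14 with Na+ ICN (adjusted p = 0.397) and 0.18 with K+ ICN (adjusted p = 0.188).

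Of the genes of S phase entry, Cdk2, whose kinase works with the E-type and A-type cyclins, rose with K+ ICN. The cyclin genes Ccne1 and Ccne2 and the transcription factor gene E2f1 passed with neither ion. Cdk2 stood at 6.81, 5.67 and 4.32 CPM in PA, 7.58, 7.92 and 6.88 with Na+ ICN and 7.71, 8.46 and 8.65 with K+ ICN. Both treated groups lay above all PA libraries, and the PA libraries differed among themselves by more than the treated ones did. The difference was 1.48-fold with K+ ICN (log2 0.56 ± 0.16 SE, adjusted p = 0.0110), a call lost without PA 3 or K+ ICN 3 (adjusted p from 0.0542 to 0.138). With Na+ ICN it was 1.35-fold (log2 0.43 ± 0.16 SE, adjusted p = 0.0837), which among the 14 alternatives passed only without PA 1 (adjusted p = 0.0351). For the other 3 genes log2 differences ran from -0.06 (Ccne2, Na+ ICN) to 0.20 (Ccne2, K+ ICN), with overlapping groups. E2f1 stood at 11.7, 12.5 and 13.1 CPM in PA, 11.6, 13.2 and 12.4 with Na+ ICN and 12.05, 12.95 and 12.98 with K+ ICN, with all groups in one range.

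In S phase, 1 of 12 genes rose with Na+ ICN (Mcm7) and 2 with K+ ICN (Mcm7 and Rrm1). These are 8.33% and 16.7% of the 12 genes beside the 5.63% and 8.15% of all genes called higher. The other replication genes passed in neither comparison. The median log2 difference over the 12 genes was 0.08 with Na+ ICN and 0.18 with K+ ICN. Mcm7 is a subunit of the helicase that unwinds DNA at the replication fork. It stood at 36.96, 36.7 and 35.8 CPM in PA, 40.1, 44.7 and 40.7 with Na+ ICN and 43.9, 44.1 and 39.1 with K+ ICN. Every treated library was above every PA library. The rise was 1.16-fold with Na+ ICN (log2 0.21 ± 0.07 SE, adjusted p = 0.0442) and 1.15-fold with K+ ICN (log2 0.21 ± 0.07 SE, adjusted p = 0.0340). The Na+ ICN call was lost without Na+ ICN 2, Na+ ICN 3 or any 1 of the PA libraries (adjusted p from 0.0631 to 0.227), and with DESeq2, limma voom or no low-count filter (0.0519 to 0.0638). The K+ ICN call of Mcm7 was lost without K+ ICN 1, K+ ICN 2 or any 1 of the PA libraries (0.0703 to 0.149). Reads of Mcm7 are uncertain in one more way, since the gene overlaps the miRNA genes Mir25, Mir93 and Mir106b and the protein-coding gene Ap4m1.

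Rrm1 is the large subunit of the reductase that makes deoxynucleotides. It stood at 53.96, 57.3 and 52.3 CPM in PA, 54.9, 56.4 and 58.5 with Na+ ICN and 63.7, 60.1 and 61.2 with K+ ICN. Its K+ ICN libraries were the 3 highest (log2 0.17 ± 0.058 SE, adjusted p = 0.0337), and its Na+ ICN libraries overlapped PA (log2 0.07 ± 0.059 SE, adjusted p = 0.528). That call was lost without K+ ICN 1, K+ ICN 3, PA 1 or PA 3 (adjusted p from 0.0823 to 0.155). The partner subunit Rrm2 had log2 differences of 0.19 with Na+ ICN and 0.18 with K+ ICN. Neither passed (adjusted p = 0.149 and 0.150).

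The abundant Pcna stood at 73.3, 76.6 and 71.7 CPM in PA, 74.1, 73.8 and 76.3 with Na+ ICN and 80.3, 76.2 and 74.9 with K+ ICN, and the groups overlapped. It passed neither with Na+ ICN (log2 0.03 ± 0.051 SE, adjusted p = 0.779) nor with K+ ICN (log2 0.06 ± 0.05 SE, adjusted p = 0.509). The other helicase genes passed in neither comparison. Mcm4 had log2 differences of 0.00 with Na+ ICN and -0.02 with K+ ICN, and Mcm2 of 0.13 and 0.19. No difference between helicase genes was tested. Gins2 and Tyms, which encodes the enzyme that makes thymidylate, had the highest estimates of the group, between 0.42 and 0.52 on the log2 scale. They were among the lowest of the 44 genes in CPM per kilobase and did not pass with all libraries. Gins2 passed with both ions only without PA 3 (adjusted p = 0.0484 with Na+ ICN and 0.0265 with K+ ICN). Tyms passed with K+ ICN without K+ ICN 1 (log2 0.595, adjusted p = 0.0102). Mcm5 passed with K+ ICN without K+ ICN 3, with no filter or with the 6 libraries compared alone (adjusted p from 0.00548 to 0.037).

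Among 55 further S phase genes (helicase loading, polymerases, nucleotide supply and fork proteins), 2 rose with Na+ ICN, 5 rose with K+ ICN and none fell. That is 3.64% and 9.09% beside the 5.63% and 8.15% of all genes. The fitted difference was above 0 for 44 of the 55 with Na+ ICN and 42 with K+ ICN, with medians of 0.11 and 0.14. Cdt1, which loads the helicase with Cdc6, stood at 5.78, 4.96 and 5.81 CPM in PA, 7.37, 6.75 and 5.86 with Na+ ICN and 9.58, 8.75 and 8.89 with K+ ICN. Its K+ ICN libraries were the 3 highest (log2 0.71 ± 0.15 SE, adjusted p = 6.24e-04) and the Na+ ICN libraries came between (log2 0.28 ± 0.16 SE, adjusted p = 0.292). Atad2, a bromodomain protein, rose with K+ ICN (log2 0.46 ± 0.11 SE, adjusted p = 0.00201) and not by the test with Na+ ICN (log2 0.28 ± 0.11 SE, adjusted p = 0.0990). Usp1, the deubiquitinase that acts on Pcna, rose with Na+ ICN (log2 0.28 ± 0.072 SE, adjusted p = 0.00625). It was lower with K+ ICN than with Na+ ICN (log2 -0.36 ± 0.072 SE, adjusted p = 4.66e-04).

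In mitosis, 4 of 21 genes rose with Na+ ICN (Mki67, Top2a, Cdk1 and Cdc20) and none fell. With K+ ICN 11 rose (Mki67, Top2a, Cdk1, Ccna2, Prc1, Cenpe, Cenpf, Kif11, Tpx2, Aurkb and Bub1b) and none fell. That is 19.0% and 52.4% of the 21 genes beside the 5.63% and 8.15% of all genes. The count with Na+ ICN was 1 without Na+ ICN 2 or PA 3 and 2 without Na+ ICN 3 or PA 1, and reached 6 without PA 2. With K+ ICN it was 7 without K+ ICN 3 or PA 1. All 21 fitted differences with K+ ICN were above 0, and 20 were with Na+ ICN, the exception being the kinesin gene Kif20a (log2 -0.03). The median log2 difference over the 21 genes was 0.22 with Na+ ICN and 0.30 with K+ ICN. Together the 21 genes were at 424, 468 and 422 CPM in PA, 463, 519 and 515 with Na+ ICN and 537, 537 and 541 with K+ ICN. The 3 K+ ICN libraries were close to one another and above all others, while PA 2 was above Na+ ICN 1, so those 2 groups overlapped. With 1 library left out the Na+ ICN median ran from 0.18 (without Na+ ICN 3) to 0.28 (without PA 2).

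Of the chromosome genes, Top2a encodes the topoisomerase that untangles sister chromatids. It stood at 71.97, 81.05 and 70.5 CPM in PA, 78.1, 91.99 and 90.9 with Na+ ICN and 91.5, 91.9 and 92.4 with K+ ICN. PA 2 was above Na+ ICN 1, while all K+ ICN libraries were above PA. The difference was 1.18-fold with Na+ ICN (log2 0.24 ± 0.055 SE, adjusted p = 0.00266) and 1.23-fold with K+ ICN (log2 0.30 ± 0.055 SE, adjusted p = 7.37e-05). Mki67 encodes the proliferation antigen that coats mitotic chromosomes. It stood at 87.998, 88.1 and 82.2 CPM in PA, 92.3, 103 and 94.8 with Na+ ICN and 97.6, 101 and 103 with K+ ICN. All treated libraries were above PA. The rise was 1.13-fold with Na+ ICN (log2 0.18 ± 0.048 SE, adjusted p = 0.00850) and 1.17-fold with K+ ICN (log2 0.22 ± 0.047 SE, adjusted p = 4.71e-04). The Na+ ICN call of Mki67 was lost without Na+ ICN 2 or PA 3 (adjusted p from 0.0927 to 0.108).

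Of the kinases and cyclins, Cdk1 drives entry into mitosis. It stood at 13.1, 15.4 and 13.6 CPM in PA, 15.9, 17.1 and 18.5 with Na+ ICN and 18.2, 18.1 and 18.6 with K+ ICN. Every treated library was above PA (log2 0.31 ± 0.10 SE, adjusted p = 0.0464 for Na+ ICN, and log2 0.38 ± 0.10 SE, adjusted p = 0.00684 for K+ ICN). The Na+ ICN call was lost without Na+ ICN 2, Na+ ICN 3, PA 1 or PA 3 (adjusted p from 0.0959 to 0.201). It was also lost with DESeq2, limma voom, no low-count filter or the 6 libraries alone (0.0571 to 0.0666). Ccna2, the A-type cyclin of S and G2 phases, stood at 24.2, 25.7 and 19.3 CPM in PA, 22.96, 27.1 and 26.7 with Na+ ICN and 30.5, 27.5 and 26.5 with K+ ICN. The K+ ICN libraries were above PA (log2 0.29 ± 0.091 SE, adjusted p = 0.0243), and the Na+ ICN libraries overlapped PA (log2 0.17 ± 0.093 SE, adjusted p = 0.273). The K+ ICN call was lost without K+ ICN 1 or PA 3 (0.158 to 0.283) and with DESeq2 (0.0508). The B-type cyclin genes, partners of Cdk1, did not pass. Ccnb1 was at log2 0.05 and 0.23 and Ccnb2 at log2 0.33 and 0.35 for Na+ ICN and K+ ICN.

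Aurkb, the kinase of the chromosomal passenger complex, stood at 5.78, 6.42 and 5.54 CPM in PA, 5.74, 8.76 and 7.80 with Na+ ICN and 7.30, 9.03 and 9.28 with K+ ICN. The K+ ICN libraries were above PA (log2 0.52 ± 0.16 SE, adjusted p = 0.0183). For Na+ ICN, 1 library lay within the PA range (log2 0.34 ± 0.16 SE, adjusted p = 0.188). The K+ ICN call was lost without K+ ICN 2, K+ ICN 3, PA 1 or PA 3 (adjusted p from 0.0648 to 0.106). Birc5, the survivin subunit of the same complex, had log2 differences of 0.22 and 0.30 and passed in neither comparison. Aurka, the spindle pole kinase, had 0.27 and 0.44. Its K+ ICN value missed the threshold (adjusted p = 0.0568) but passed without K+ ICN 2, with upper-quartile scaling or with the 6 libraries alone (0.0403 to 0.0482).

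Of the spindle genes, Prc1 bundles microtubules between the separating chromosomes. It stood at 24.8, 28.004 and 20.5 CPM in PA, 27.6, 31.8 and 27.4 with Na+ ICN and 31.1, 33.8 and 33.1 with K+ ICN. All K+ ICN libraries were above PA (log2 0.42 ± 0.088 SE, adjusted p = 4.92e-04), and PA 2 was above 2 of the Na+ ICN libraries (log2 0.26 ± 0.089 SE, adjusted p = 0.0529). That Na+ ICN value passed with the replicate block, upper-quartile scaling or no low-count filter (adjusted p from 0.0279 to 0.0392), without PA 2 (log2 0.36, adjusted p = 0.0103), and narrowly with a filter of 1 CPM in 3 libraries. Kif11, the kinesin that pushes spindle poles apart, stood at 19.5, 21.4 and 20.6 CPM in PA, 18.1, 21.98 and 24.999 with Na+ ICN and 25.1, 23.5 and 28.9 with K+ ICN. The K+ ICN libraries were above PA (log2 0.33 ± 0.096 SE, adjusted p = 0.0138), and the Na+ ICN libraries lay on both sides of it (log2 0.10 ± 0.098 SE, adjusted p = 0.603). The K+ ICN call was lost without K+ ICN 3 or PA 1 (adjusted p = 0.159 and 0.078).

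Tpx2 nucleates spindle microtubules and activates Aurka. It stood at 25.1, 32.4 and 31.999 CPM in PA, 34.4, 32.9 and 34.4 with Na+ ICN and 37.01, 35.2 and 33.8 with K+ ICN. All treated libraries were above PA, the lowest PA library being far under the other 2. It passed with K+ ICN (log2 0.24 ± 0.081 SE, adjusted p = 0.0373) but not with Na+ ICN (log2 0.20 ± 0.081 SE, adjusted p = 0.120). The K+ ICN call was lost without PA 1 or any 1 of the K+ ICN libraries (0.0536 to 0.355) and with DESeq2 (0.061).

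Of the kinetochore and checkpoint genes, Cenpe is a kinesin that carries chromosomes to the spindle equator. It stood at 15.6, 17.6 and 16.2 CPM in PA, 17.5, 17.96 and 20.5 with Na+ ICN and 22.7, 24.3 and 22.2 with K+ ICN. All 3 K+ ICN libraries were above the 6 others. The rise against PA was 1.40-fold (log2 0.48 ± 0.094 SE, adjusted p = 1.49e-04), and the Na+ ICN libraries overlapped PA (log2 0.20 ± 0.096 SE, adjusted p = 0.200). Cenpf, another kinetochore protein, stood at 33.1, 37.1 and 34.7 CPM in PA, 38.3, 40.3 and 38.5 with Na+ ICN and 42.6, 39.6 and 42.2 with K+ ICN, with all treated libraries above PA. It passed with K+ ICN (log2 0.24 ± 0.07 SE, adjusted p = 0.0127) and not with Na+ ICN (log2 0.17 ± 0.07 SE, adjusted p = 0.114). That call was lost without K+ ICN 1, K+ ICN 3 or PA 1 (adjusted p from 0.0587 to 0.0885).

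Bub1b, the checkpoint protein that holds back anaphase, stood at 9.73, 10.7 and 8.21 CPM in PA, 9.53, 11.8 and 13.2 with Na+ ICN and 12.5, 14.5 and 12.3 with K+ ICN. It rose with K+ ICN (log2 0.46 ± 0.13 SE, adjusted p = 0.0108), a call lost without K+ ICN 2 or PA 3 (adjusted p from 0.0818 to 0.106). Cdc20 activates the anaphase-promoting complex, and that checkpoint acts on it. It stood at 9.62, 12.3 and 11.7 CPM in PA, 13.4, 14.2 and 15.8 with Na+ ICN and 12.8, 13.9 and 15.4 with K+ ICN. It is the member called with Na+ ICN (log2 0.39 ± 0.12 SE, adjusted p = 0.0270) and not with K+ ICN (log2 0.32 ± 0.12 SE, adjusted p = 0.0594). All treated libraries were above PA, and the direct difference between the ions was log2 -0.07 (adjusted p = 0.845). The Na+ ICN call was lost without Na+ ICN 2, Na+ ICN 3, PA 1 or PA 3 (adjusted p from 0.0521 to 0.179). The K+ ICN value passed without K+ ICN 1, without PA 2, with the replicate block or with upper-quartile scaling (0.0414 to 0.0484). Bub1 had log2 differences of 0.39 and 0.18 and passed with Na+ ICN without Na+ ICN 1 or PA 2 alone (0.0202 and 0.0305). The 10 mitosis genes that did not pass with K+ ICN had log2 differences of 0.18 (Nusap1) to 0.44 (Aurka).

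Among 60 further mitosis genes, 5 rose with Na+ ICN, and with K+ ICN 6 rose and 1 fell. That makes 8.33% and 10% higher beside the 5.63% and 8.15% of all genes. The fitted difference was above 0 for 51 of the 60 with either ion, with medians of 0.16 and 0.19. Smc4, a condensin subunit, stood at 37.5, 38.96 and 39.3 CPM in PA, 42.6, 50.2 and 46.5 with Na+ ICN and 50.2, 50.5 and 51.9 with K+ ICN. All its treated libraries were above PA (log2 0.28 ± 0.068 SE, adjusted p = 0.00376 for Na+ ICN, and log2 0.39 ± 0.067 SE, adjusted p = 1.74e-05 for K+ ICN). Anln, which encodes the cytokinesis protein anillin, rose with Na+ ICN (log2 0.51 ± 0.13 SE, adjusted p = 0.00516) and K+ ICN (log2 0.54 ± 0.13 SE, adjusted p = 0.00165). So did the chromatin protein gene Hmgb2 (log2 0.27 ± 0.069 SE, adjusted p = 0.0101, and log2 0.20 ± 0.069 SE, adjusted p = 0.0466). The gene that fell with K+ ICN, named after its value was seen, was the nuclear lamina gene Lmnb1 (log2 -0.13 ± 0.042 SE, adjusted p = 0.0204).

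**Figure D2:**
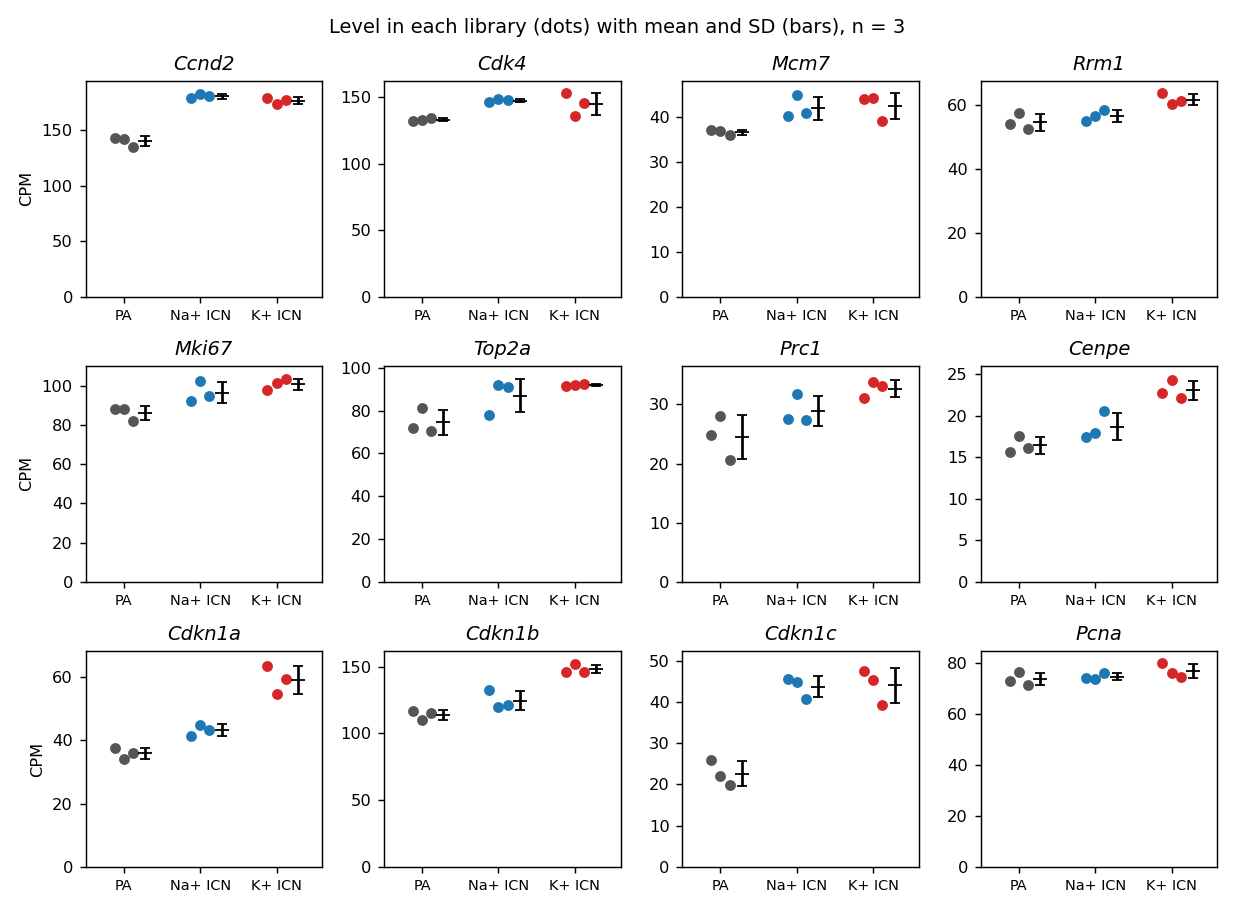
CPM of 12 of the genes in each library (dots), with the group mean and SD beside them (bars, n = 3), each panel on its own axis from 0. Cdkn1c and Ccnd2 separate both treated groups from PA, Cdkn1a and Cdkn1b also separate K+ ICN from Na+ ICN, and the Pcna groups overlap.

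The plot of levels by library shows 12 of these genes on linear axes. The plot of medians by role shows the S phase and mitosis genes side by side. Relative to the PA mean, the median over the 21 mitosis genes was -0.07, 0.12 and -0.07 on the log2 scale in PA 1 to 3, 0.07, 0.25 and 0.29 with Na+ ICN, and 0.30, 0.29 and 0.30 with K+ ICN. Over the 12 S phase genes it was 0.03, -0.02 and 0.03 in PA, 0.03, 0.15 and 0.07 with Na+ ICN, and 0.23, 0.17 and 0.15 with K+ ICN. The S phase median was the lower of the pair in all 6 treated libraries, and the difference between the groups of genes was not tested. The 55 further S phase and 60 further mitosis genes did not repeat this in every library. There the S phase median was the higher in Na+ ICN 1 (0.08 beside 0.06) and K+ ICN 1 (0.17 beside 0.16). It was the lower in the other treated libraries. Counting the 4 entry genes with S phase left the medians at 0.08 and 0.18. Leaving Mki67, Top2a and Ccna2, which are also expressed in S phase, out of mitosis moved its medians to 0.24 and 0.31. The summed level of the 12 S phase genes was 321, 324 and 319.6 CPM in PA, 328, 355 and 339 with Na+ ICN and 370.0, 361 and 346 with K+ ICN. All treated libraries were above PA.

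**Figure D3:**
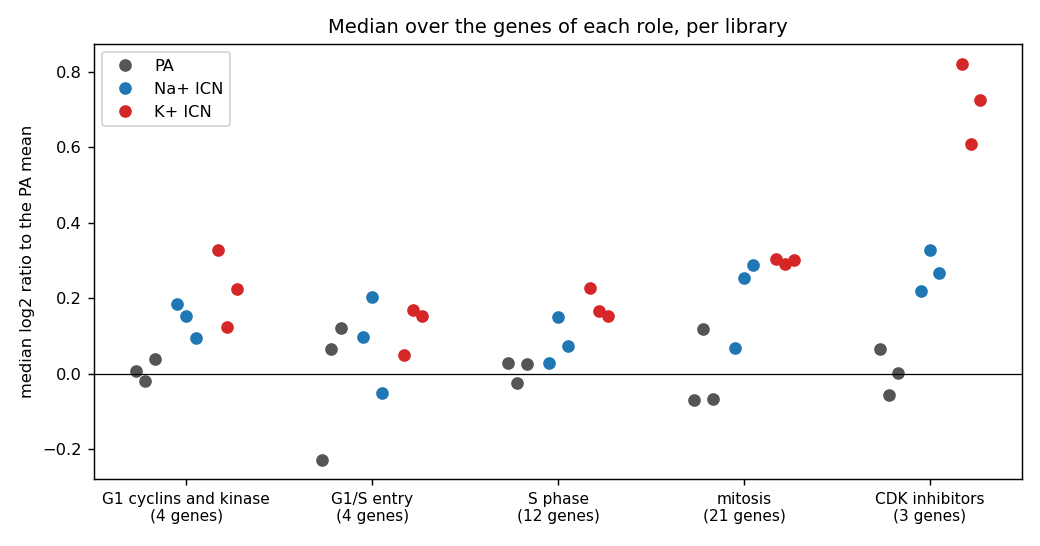
Median over the genes of each role of the log2 ratio to the PA mean, 1 point a library, with PA in grey, Na+ ICN in blue and K+ ICN in red. The 3 K+ ICN libraries sit at 0.29 to 0.30 for mitosis and at 0.15 to 0.23 for S phase.

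The promoters of S phase and mitosis genes are known to differ in their sequence elements, which is the reason for showing them. Many mitosis genes have a cell cycle genes homology region (CHR), which binds MuvB complexes, next to CCAAT boxes bound by NF-Y, and many S phase genes have E2F sites. RefSeq promoter windows on GRCm38.p6, from 250 bases before to 50 bases after the annotated start, were at hand for 34 of the 44 genes, 17 of them in mitosis and 10 in S phase. The letters searched on both strands were TTTGAA and TTTAAA for the CHR, CCAAT for the CCAAT box, and TTTCGCGC, TTTGGCGC and TTTCCCGC for the E2F site. Windows of 3 mitosis genes that rose with K+ ICN are printed, for Top2a (chr11:99024140-99024439, minus strand), Cdk1 (chr10:69352863-69353162, minus strand) and Prc1 (chr7:80294201-80294500, plus strand). With them is that of the S phase gene called with both ions, Mcm7 (chr5:138171834-138172133, minus strand). All are written 5′ to 3′ in the direction of the gene. Capitals mark the matches, and a match on the opposite strand reads as its reverse complement, such as ATTGG for the CCAAT box or TTCAAA for the CHR.
Top2a: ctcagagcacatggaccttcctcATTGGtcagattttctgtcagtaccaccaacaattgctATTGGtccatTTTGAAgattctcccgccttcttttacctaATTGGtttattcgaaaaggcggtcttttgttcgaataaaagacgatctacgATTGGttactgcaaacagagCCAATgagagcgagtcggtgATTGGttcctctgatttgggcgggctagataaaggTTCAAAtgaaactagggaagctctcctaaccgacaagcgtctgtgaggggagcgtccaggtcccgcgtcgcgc
Cdk1: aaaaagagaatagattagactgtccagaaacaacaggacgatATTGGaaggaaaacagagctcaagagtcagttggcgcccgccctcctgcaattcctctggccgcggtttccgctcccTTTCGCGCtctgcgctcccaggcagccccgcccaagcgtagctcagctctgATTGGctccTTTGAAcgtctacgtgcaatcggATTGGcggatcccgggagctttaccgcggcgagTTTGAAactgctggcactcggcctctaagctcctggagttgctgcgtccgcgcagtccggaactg
Prc1: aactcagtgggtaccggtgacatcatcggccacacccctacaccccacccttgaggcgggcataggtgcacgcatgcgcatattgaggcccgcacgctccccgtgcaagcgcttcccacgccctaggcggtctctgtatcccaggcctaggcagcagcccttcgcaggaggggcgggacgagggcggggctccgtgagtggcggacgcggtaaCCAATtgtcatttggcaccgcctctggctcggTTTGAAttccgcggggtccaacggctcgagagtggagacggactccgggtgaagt
Mcm7: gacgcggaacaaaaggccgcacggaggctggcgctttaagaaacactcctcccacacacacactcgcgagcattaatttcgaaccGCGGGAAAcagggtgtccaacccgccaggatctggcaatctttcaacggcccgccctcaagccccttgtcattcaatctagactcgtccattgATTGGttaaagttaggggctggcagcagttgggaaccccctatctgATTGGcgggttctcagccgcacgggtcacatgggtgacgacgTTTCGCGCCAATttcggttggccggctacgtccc

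Prc1 has a single CHR that begins 5 bases before the start and a CCAAT box that begins 37 bases before it. Cdk1 holds the CHR at 71 and 15 bases before the start, and its E2F match at 131 bases before it is the sole one among the mitosis genes. In the Mcm7 window, 1 E2F match at base 17 after the start runs into a CCAAT box with which it shares a base. Another E2F match stands 165 bases before the start, and there is no CHR match. At least 1 TTTGAA was found for 12 of the 17 mitosis genes (70.6%), 1 of the 10 S phase genes (Mcm2) and 20.2% of all 27025 genes with a window. A gene counted where any of its windows had a match. With TTTAAA counted too, the shares were 15 of 17, 3 of 10 and 30.6%. The CCAAT box was found for 15 of 17 mitosis genes, 8 of 10 S phase genes and 41.1% of all genes. An E2F match was found for 5 of 10 S phase genes (Mcm3, Mcm5, Mcm6, Mcm7 and Cdc6), 1 of 17 mitosis genes and 2.12% of all genes. These are matches of letters in a window, with no measurement of binding.

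**Figure D4:**
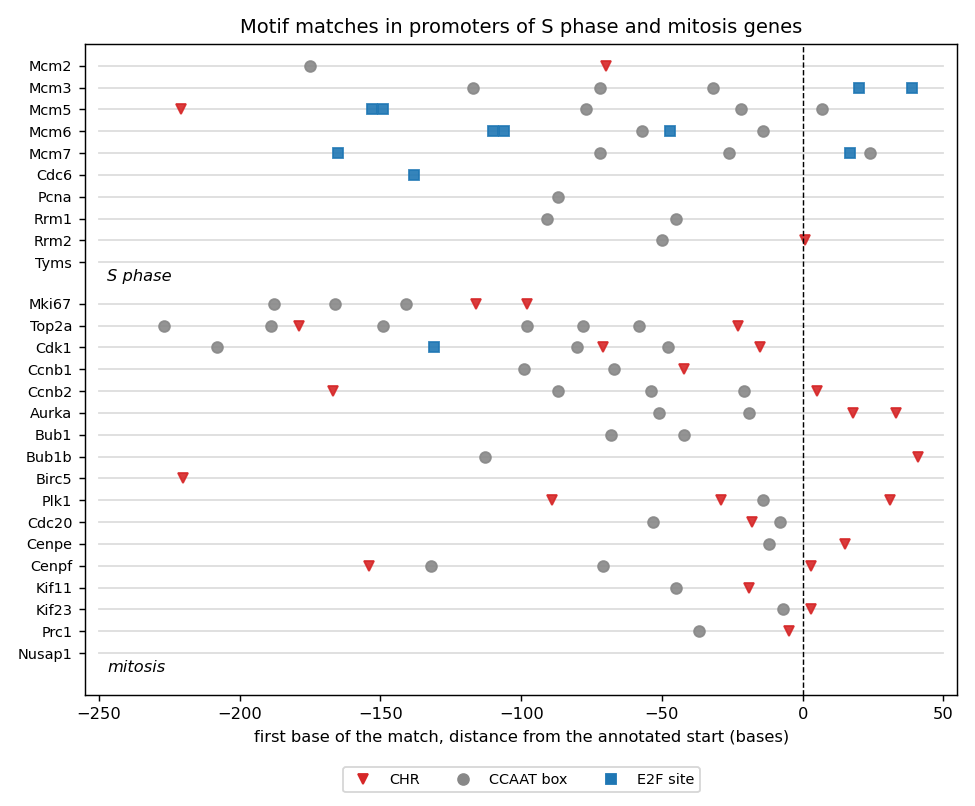
Position of each motif match in the promoter windows of 10 S phase and 17 mitosis genes, as distance in bases of the first base of the match from the annotated start (dashed line). Red triangles are CHR, grey circles CCAAT boxes and blue squares E2F sites, and CHR marks appear for 15 of the 17 mitosis genes and 3 of the 10 S phase genes.

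The genes of all 3 Cip/Kip inhibitors rose with both ions, and they include the largest changes among the 44 genes. Cdkn1c (chr7:143458339-143461059), the gene of p57 and an imprinted gene, stood at 25.95, 22.1 and 19.9 CPM in PA, 45.7, 44.8 and 40.7 with Na+ ICN and 47.6, 45.3 and 39.3 with K+ ICN. Both treated groups were far above PA and overlapped each other. The rise was 1.95-fold with Na+ ICN (log2 0.97 ± 0.085 SE, adjusted p = 4.11e-11) and 1.94-fold with K+ ICN (log2 0.96 ± 0.084 SE, adjusted p = 2.02e-11). Cdkn1a (chr17:29090979-29100722), the gene of p21 and a target of p53, stood at 37.5, 34.2 and 35.9 CPM in PA, 41.3, 45.02 and 43.2 with Na+ ICN and 63.4, 54.7 and 59.3 with K+ ICN. The 3 groups did not overlap. The rise was 1.21-fold with Na+ ICN (log2 0.28 ± 0.069 SE, adjusted p = 0.00462) and 1.64-fold with K+ ICN (log2 0.71 ± 0.067 SE, adjusted p = 2.16e-11). Cdkn1b (chr6:134920401-134925525), the gene of p27, stood at 117, 109.8 and 115 CPM in PA, 133, 120.2 and 121 with Na+ ICN and 146, 152 and 146 with K+ ICN. The groups were again apart. The rise was 1.10-fold with Na+ ICN (log2 0.14 ± 0.043 SE, adjusted p = 0.0235) and 1.29-fold with K+ ICN (log2 0.37 ± 0.042 SE, adjusted p = 2.87e-09). The Na+ ICN call was lost without Na+ ICN 1, PA 2 or PA 3 (adjusted p from 0.0538 to 0.218) and with limma voom (0.0554).

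Compared directly, K+ ICN was above Na+ ICN for 2 of the 44 genes and below it for none, which is 4.55% of the members beside 3.33% of all genes called higher and 3.25% called lower. For 8 members the K+ ICN libraries lay above all Na+ ICN libraries, as for 13.5% of all genes. Both called genes are inhibitors and passed in all 14 alternative fits. Cdkn1a was 1.35-fold higher (log2 0.44 ± 0.067 SE, adjusted p = 5.12e-06) and Cdkn1b 1.17-fold (log2 0.23 ± 0.042 SE, adjusted p = 1.14e-04). Cdkn1c did not differ by the test (log2 -0.01 ± 0.08 SE, adjusted p = 0.981). None of the 41 genes of the other roles passed, so the larger number of mitosis genes called with K+ ICN than with Na+ ICN is not a shown difference between the ions. The median direct difference was log2 0.08 over the mitosis genes and 0.04 over the S phase genes. The latter ran from -0.0040 to 0.07 over the alternatives, its lowest value coming without Na+ ICN 3. Nearest to the threshold was Cenpe (log2 0.28 ± 0.093 SE, adjusted p = 0.0568). It passed without Na+ ICN 3, with the replicate block and with a filter of 1 CPM in 3 libraries (adjusted p from 0.0252 to 0.0491). Without Na+ ICN 3, Kif11 passed as well (0.0343) and the count was 4.

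Of 21 tested p53 targets other than Cdkn1a, 2 rose with Na+ ICN and 4 with K+ ICN and none fell, or 9.52% and 19.0% of the list beside the 5.63% and 8.15% of all genes. Btg2 is an antiproliferative gene that also marks cortical progenitors about to make neurons, and it stands in the progenitor list as well. It stood at 14.8, 15.6 and 14.2 CPM in PA, 19.8, 18.1 and 17.1 with Na+ ICN and 23.8, 20.8 and 21.9 with K+ ICN. All treated libraries were above PA (log2 0.31 ± 0.099 SE, adjusted p = 0.0301 for Na+ ICN, and log2 0.57 ± 0.096 SE, adjusted p = 1.49e-05 for K+ ICN). Sesn2, a stress-induced inhibitor of mTORC1 signalling, passed with K+ ICN (log2 0.35 ± 0.076 SE, adjusted p = 7.54e-04) and not with Na+ ICN (log2 0.13 ± 0.078 SE, adjusted p = 0.331). Phlda3, an inhibitor of Akt, also passed with K+ ICN (log2 0.59 ± 0.16 SE, adjusted p = 0.00643) and not with Na+ ICN (log2 0.23 ± 0.16 SE, adjusted p = 0.426). The median over the list was 0.11 with Na+ ICN and 0.10 with K+ ICN.

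Of 26 tested genes of the retinoblastoma and E2F network, 1 rose with Na+ ICN, and with K+ ICN 2 rose and 2 fell. These shares, 3.85% and 7.69% higher and 7.69% lower, are near the 5.63%, 8.15% and 7.68% of all genes, and the genes named next are single values. E2f8, an E2F repressor gene that is itself expressed in S phase, stood at 5.48, 5.67 and 4.23 CPM in PA and at 8.67, 8.94 and 7.39 CPM with K+ ICN. Those PA and K+ ICN libraries did not overlap (log2 0.70 ± 0.16 SE, adjusted p = 0.00143). Compared directly, no gene of this list was called higher with K+ ICN than with Na+ ICN, and 1 was called lower. Fbxw7, the ubiquitin ligase subunit that removes cyclin E, rose with K+ ICN (log2 0.17 ± 0.05 SE, adjusted p = 0.0114). Mycn, a Myc family transcription factor gene active in progenitors, stood at 83.8, 79.2 and 81.98 CPM in PA, 79.8, 87.4 and 79.2 with Na+ ICN and 66.6, 74.3 and 66.98 with K+ ICN. The 3 K+ ICN libraries were the lowest (log2 -0.24 ± 0.053 SE, adjusted p = 5.75e-04).

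Markers of other cells moved between the same groups. Summed levels of 20 neural progenitor markers ran from 1821 to 1924 CPM in PA, from 1933 to 2083 CPM with Na+ ICN and from 1987 to 2012 CPM with K+ ICN. Of the markers, 6 (30%) were higher for each ion and 1 lower for K+ ICN, beside 5.63% and 8.15% of all genes called higher. Fitted differences were below 0 for 3 of the 20 with Na+ ICN and for 6 with K+ ICN. The medians were log2 0.14 and 0.09. Vim, the intermediate filament gene of radial glia, astrocytes and fibroblasts, rose with Na+ ICN (log2 0.30 ± 0.034 SE, adjusted p = 7.92e-09) and K+ ICN (log2 0.56 ± 0.034 SE, adjusted p = 5.49e-17). So did Nes, the nestin gene of progenitors (log2 0.22 ± 0.042 SE, adjusted p = 1.91e-04, and log2 0.25 ± 0.042 SE, adjusted p = 1.30e-05). Of 16 tested astrocyte markers, 11 and 12 (68.8% and 75%) were higher with Na+ ICN and K+ ICN. Their sums ran from 1003 to 1041 CPM in PA, 1187 to 1263 CPM with Na+ ICN and 1172 to 1192 CPM with K+ ICN. Apoe, which carries lipids out of astrocytes, was among those higher with Na+ ICN (log2 0.51 ± 0.042 SE, adjusted p = 8.88e-13). The largest fitted difference of that list with Na+ ICN was log2 1.21.

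Of 15 tested fibroblast and mural markers, 7 (46.7%) were higher and 1 lower with Na+ ICN and 6 (40%) higher with K+ ICN. Over all genes, 5.63% and 8.15% were called higher. Sums of these markers were 211 to 227 CPM in PA, 270.1 to 279 CPM with Na+ ICN and 288 to 308 CPM with K+ ICN. Acta2, smooth muscle actin, rose with both (log2 0.73 ± 0.072 SE, adjusted p = 4.10e-10, and log2 1.05 ± 0.071 SE, adjusted p = 4.62e-15). Of 10 tested oligodendrocyte lineage markers, 2 (20%) were higher and 1 lower with each ion, so the list was mixed. Its fitted log2 differences ran from -0.54 to 0.83 with Na+ ICN and from -0.56 to 0.62 with K+ ICN. The marker called lower was the receptor gene Pdgfra (log2 -0.54 ± 0.083 SE, adjusted p = 7.05e-06, and log2 -0.50 ± 0.082 SE, adjusted p = 8.63e-06). Sums of the list overlapped, at 174 to 193 CPM in PA, 162 to 179 CPM with Na+ ICN and 169 to 181 CPM with K+ ICN.

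Of 10 tested microglia markers, none passed with Na+ ICN and 2 (20%) were higher with K+ ICN, beside 8.15% of all genes. Sums were 29.2 to 34.3 CPM in PA, 29.3 to 37.7 CPM with Na+ ICN and 34.5 to 37.7 CPM with K+ ICN. Of 3 tested endothelial markers, none passed with Na+ ICN and Kdr (33.3%) was higher with K+ ICN, beside 8.15% of all genes. Fitted differences were below 0 for 2 of the 3 with either ion, with medians of log2 -0.33 and -0.32. Sums over all 11 listed endothelial markers ran from 10.7 to 15.4 CPM in PA, 11.97 to 13.9 CPM with Na+ ICN and 14.8 to 20.1 CPM with K+ ICN. The defining markers Mog of oligodendrocytes, Cldn5, Cdh5, Tie1 and Ly6c1 of endothelium, and Tmem119 and P2ry12 of microglia, and the astrocyte junction gene Gjb6, were at 0 to 12 counts in every library. The 18 neuron markers summed to 10151 to 10242 CPM in PA, 9880 to 10066 CPM with Na+ ICN and 9182 to 9283 CPM with K+ ICN. Of these markers 1 was higher and 3 were lower with Na+ ICN, and 1 was higher and 6 were lower with K+ ICN. Over all genes, 5.22% and 7.68% were called lower. Fitted differences were below 0 for 9 of the 18 neuron markers with Na+ ICN and for 14 with K+ ICN. Their medians were log2 -0.0049 and -0.06. The part of these shifts in the levels of the cell cycle genes was not tested.

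**Figure D5:**
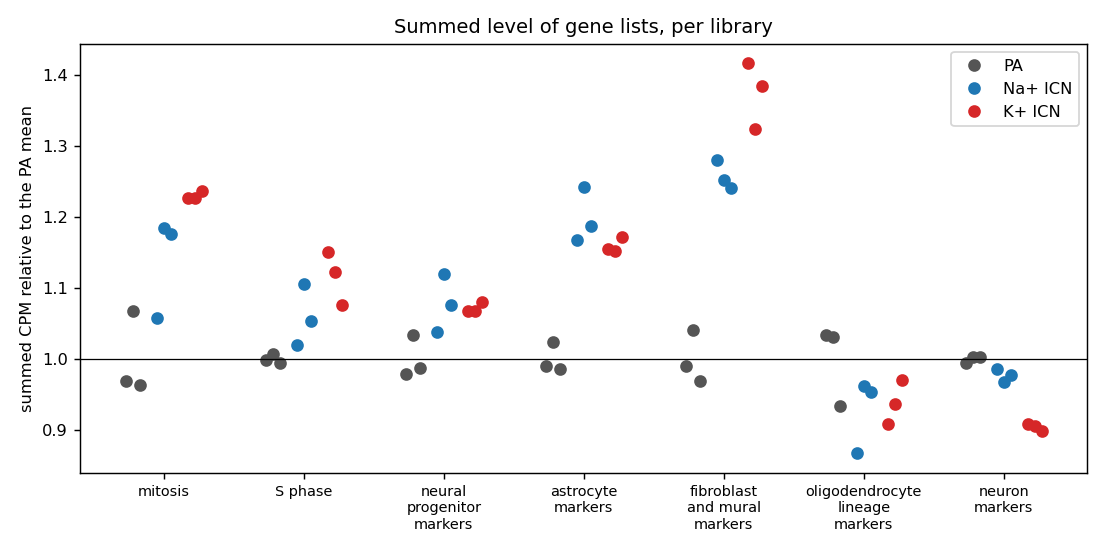
Summed CPM of gene lists in each library relative to the PA mean (line at 1), with PA in grey, Na+ ICN in blue and K+ ICN in red. The K+ ICN libraries are above PA for mitosis and S phase genes and for progenitor, astrocyte and fibroblast markers and below PA for neuron markers.

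The plot of summed lists sets these levels side by side. Relative to PA, the group mean of the 21 mitosis genes was 1.14 times with Na+ ICN and 1.23 times with K+ ICN, and that of the S phase genes 1.06 and 1.12 times. Progenitor markers were at 1.08 and 1.07 times, astrocyte markers at 1.20 and 1.16 times, and fibroblast and mural markers at 1.26 and 1.37 times the PA mean. The sparser microglia markers were at 1.06 and 1.12 times and the endothelial markers at 1.05 and 1.39 times. For 2 of the 3 tested endothelial markers the fitted difference was below 0 with either ion. No difference between the ions was tested for these sums.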

How the data were processed

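Poly(A) RNA of 9 cultures, 3 a group, was sequenced as single-end libraries from a stranded kit, per the labels' protocols. Reads were handled with Trim Galore, STAR and RSEM on GRCm38/mm10, per the submitters' processing notes, without versions. The authors deposited raw counts per gene in 1 table. Whether these are STAR or rounded RSEM values, on which annotation and with which strand rule reads were counted is not given in the sources used here. From the deposited counts, edgeR 4.0.16 (R 4.3.3) fitted all 9 libraries in a group-means model with TMM factors, a filterByExpr minimum of 10 and the robust quasi-likelihood test, and Benjamini-Hochberg adjustment ran over the 15183 genes tested, which held 99.93% of counts, with a threshold of 0.05. CPM are counts scaled to library totals of 17924988 to 22906950, and CPM per kilobase used the longest GENCODE vM21 transcript. With 3 libraries a group, precision is limited by the spread between cultures.

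All members are accounted for, with values of each library for every member past the threshold in any comparison, and up to 3 genes of smallest p are named from each other list. The members, roles and lists were chosen with earlier results of these data known, so their counts are descriptions set beside all genes. Alternatives were DESeq2 1.42.0, its size factors in edgeR, upper-quartile factors, limma voom 3.58.1, no filter, a filter of 1 CPM in 3 libraries, only the 6 libraries compared, a replicate block, and each library left out. Promoter windows and gene positions come from RefSeq on GRCm38.p6.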

Additional observations from a re-analysis of the deposited data

How the results depend on the processing

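None of the 10, 20 and 2 member calls changed sign under an alternative. The S phase median between the ions (-0.0040 without Na+ ICN 3) and the median of all genes with Na+ ICN (-0.00049 with a filter of 1 CPM in 3 libraries) crossed 0. The median of all genes between the ions, -0.00044 in the main fit, crossed 0 as well (0.0015 without Na+ ICN 3). Leaving out 1 library gave 1079 to 1376 genes called with Na+ ICN in place of 1648, 6 to 10 members in place of 10 with Na+ ICN, 13 to 18 in place of 20 with K+ ICN, and 2 to 4 in place of 2 between the ions. The lowest counts of genes with Na+ ICN came without PA 3 (1079) and without Na+ ICN 2 (1089). The other 8 alternatives gave 7 to 11, 17 to 22 and 2 to 3 members. S phase medians ran over the alternatives from 0.08 to 0.12 with Na+ ICN, from 0.16 to 0.21 with K+ ICN and from -0.0040 to 0.07 between the ions, and mitosis medians from 0.18 to 0.28, from 0.28 to 0.36 and from 0.05 to 0.13. Replicate numbers are shared by the groups, and deviations of same-numbered libraries correlated at -0.023 to 0.048. Those of libraries with different numbers correlated at -0.037 to 0.039. These ranges overlap when all comparisons are pooled. Between Na+ ICN and PA, same-numbered libraries correlated at 0.0097 to 0.040, above the highest value of different numbers (0.0062). Between K+ ICN and Na+ ICN they correlated at 0.028 to 0.048, again above different numbers (highest 0.0047). Between K+ ICN and PA they correlated at -0.023 to -0.0022, within the range of different numbers. Whether same-numbered cultures shared a source is not settled by these values, and the labels do not say. With the number as a block, 11, 21 and 3 members and 1825, 2612 and 1165 genes were called with Na+ ICN, with K+ ICN and between the ions. The widest standard errors were those of Cdc6 and Gins2, which have few counts and a fitted biological variation of 15.3% and 15.4%.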
